A study of Danio rerio with 7 samples.

Results

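The genes described here are 59 oxidative phosphorylation genes of module 7, out of 4449 genes that the authors divided over 8 modules. They are all identifiers that the annotation chart of module 7 lists under terms on oxidative phosphorylation, the respiratory chain, electron transport, ATP synthesis or proton-transporting complexes. The rule took 60 identifiers and left out 1, RPL37 (ENSDARG00000034291), a protein of the large ribosomal subunit, which also stood under ribosome terms. The 59 are 15.6% of the 379 genes of module 7.

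Cells came from ventricles of adult zebrafish that carried the nppa:mCitrine reporter and had been cryoinjured 7 days earlier. One set was wildtype and filled 3 plates, and the other was hmga1a mutant and filled 4 plates, with 384 wells per plate and 1 cell per well. Cells of both sets carried the reporter and were sorted on its signal, which follows nppa, a natriuretic peptide gene that cardiomyocytes bordering an injury switch on. The mutant allele and the number of fish are not given in the labels. The module lists and charts hold no value per plate or cell. Depth and spread between plates are therefore unknown, and the direction of any gene between the genotypes cannot be read from them.

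Of 9 cardiomyocyte markers, 6 were symbols of the name table and 4 of them lay in module 7 with the genes described here: myl7, cmlc1, tnnc1a and actc1a, which encode sarcomere proteins. The other 2, the natriuretic peptide genes nppa and nppb, lay in modules 5 and 2. Markers were matched by whole symbol, unlike the subunits below, so tnnt2a was not found although a gene named TNNT2 was in module 7. None of the 3 endothelial, 4 leukocyte and 3 fibroblast and epicardial markers lay in module 7, and 2, 4 and 1 of them lay in other modules. Module 7 holds 8.52% of all module genes, so its lack of so few markers says little about these cell types. Of 2 erythrocyte markers, hbaa1 was in no module and hbba1 was not a symbol of the name table, so its place could not be read.

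Oxidative phosphorylation is the last step of fuel breakdown in mitochondria. Complexes I and II pass electrons from NADH and succinate to ubiquinone, complex III passes them to cytochrome c, and complex IV hands them to oxygen. Complexes I, III and IV pump protons across the inner membrane, and complex V, the ATP synthase, lets them flow back to make ATP. Heart muscle depends on this route for most of its ATP. Nuclear genes encode most subunits, and the mitochondrial genome encodes the remainder.

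A hand-made catalogue listed nuclear-encoded subunits of complexes I to V, with the complex V inhibitor ATP5IF1 counted among them. Forms of one subunit were separate names. The catalogue held 84 names, and 79 of them were symbols of the name table. By symbol, 45 lay in module 7. An older symbol and a RefSeq synonym added 2 more, atp5md for ATP5MK and si:ch1073-325m22.2 for UQCR11, which made 47 of 81 named subunits (58.0%). The other 34 named subunits were matched to no gene of the 8 modules. Most genes of the name table are in no module either, since it names 29201 genes and the modules hold 4449. Of the 4449 module genes, 798 were not in the name table and could not be matched to any subunit. In module 7, 42 of 379 genes had no symbol. No matched subunit lay only in a module other than 7. These 81 subunits stood on 96 identifiers, of which 52 were in module 7, 1 was in another module and 43 were in none. Of the 53 matched identifiers in any module, 52 (98.1%) were thus in module 7, which holds 8.52% of all module genes. Module 7 was chosen for holding the members, so this share is a description and was not tested.

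**Figure D1:**
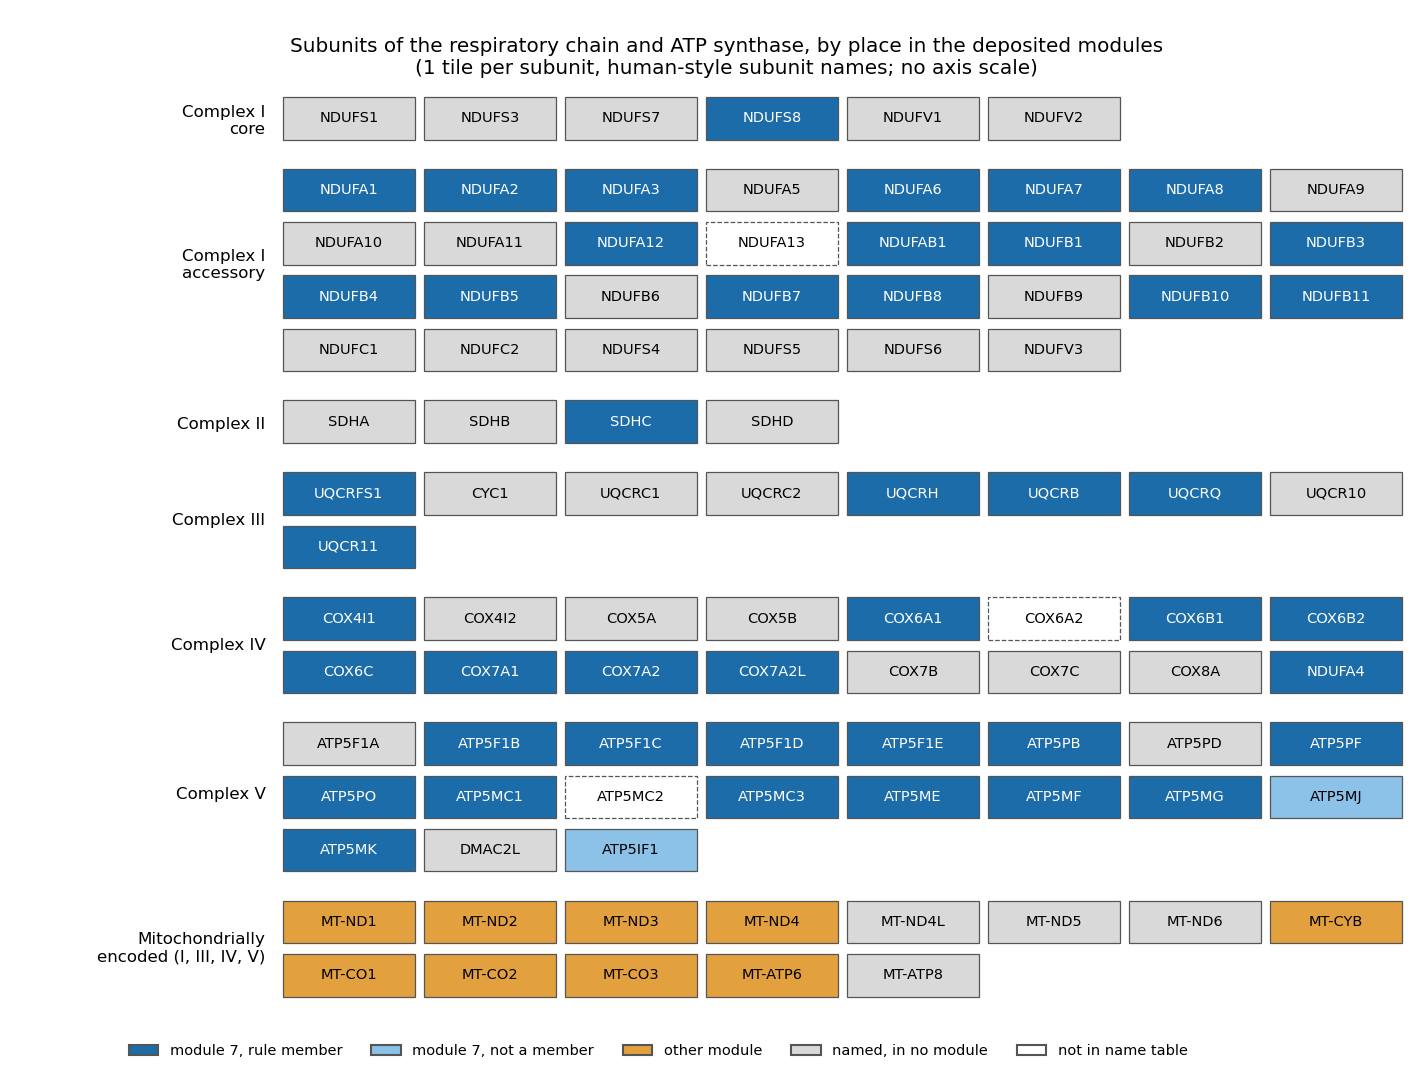
Map of 84 nuclear-encoded and 13 mitochondrially encoded subunits, with 1 tile per subunit grouped by complex and coloured by where its identifiers lie (the map has no scale). Complex V is almost filled with module 7 tiles, the core of complex I holds 1, and no nuclear-encoded subunit is coloured as lying in another module alone.

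Complex I, the NADH dehydrogenase, gave 18 members for 17 of 35 named subunits (48.6%). Of the 6 nuclear-encoded core subunits counted here, 1 was in module 7, NDUFS8 (ENSDARG00000051986), which carries iron-sulphur clusters on the way to ubiquinone. The other 5 were in no module, as were most genes of the name table, so their absence does not by itself set the core apart. Of these 5, NDUFV1, NDUFV2 and NDUFS1 belong to the arm that oxidises NADH. NDUFS3 and NDUFS7 belong to the part next to it that leads to ubiquinone.

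Of the accessory subunits of complex I, which surround and stabilise the core, 16 of 29 named ones (55.2%) were in module 7. From the NDUFA names there were NDUFA1 (ENSDARG00000036329), NDUFA2 (ENSDARG00000021984), NDUFA3 (ENSDARG00000041400), NDUFA6 (ENSDARG00000038028), ndufa7 (ENSDARG00000036684), NDUFA8 (ENSDARG00000058041) and NDUFA12 (ENSDARG00000042469). The acyl carrier protein of the mitochondrion, which is also built into complex I, was there as both NDUFAB1 (ENSDARG00000058463) and ndufab1b (ENSDARG00000014915). The NDUFB names, subunits of the membrane arm, gave NDUFB1 (ENSDARG00000087456), ndufb3 (ENSDARG00000075709), NDUFB4 (ENSDARG00000019332), NDUFB5 (ENSDARG00000070824), NDUFB7 (ENSDARG00000033789), NDUFB8 (ENSDARG00000010113), NDUFB10 (ENSDARG00000028889) and NDUFB11 (ENSDARG00000043467).

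By name family, a grouping made after the placements were seen, module 7 held 8 of 12 named NDUFA subunits and 8 of 11 NDUFB subunits. NDUFAB1 was counted among the NDUFA names. It held 1 of 7 NDUFS subunits counted here, 0 of 3 NDUFV subunits and 0 of 2 NDUFC subunits. The accessory subunits in no module were NDUFA5, NDUFA9, NDUFA10, NDUFA11, NDUFB2, NDUFB6, NDUFB9, NDUFC1, NDUFC2, NDUFS4, NDUFS5, NDUFS6 and NDUFV3. NDUFA13 was not a symbol of the name table, so its place could not be read.

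Complex II, succinate dehydrogenase, was represented by 1 of 4 subunits. This was SDHC (ENSDARG00000038608), which anchors the enzyme in the membrane. The flavoprotein SDHA, the iron-sulphur protein SDHB and the other anchor SDHD, on 2 identifiers, were in no module. SDHC was also the one member that the chart lists under the citrate cycle, in which succinate dehydrogenase is an enzyme.

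Complex III, the cytochrome bc1 complex, had 5 of 9 subunits in module 7. The Rieske iron-sulphur protein UQCRFS1 (ENSDARG00000007745), a catalytic subunit, was a member, and so were the small subunits UQCRB (ENSDARG00000011146), UQCRQ (ENSDARG00000029064), UQCRH (ENSDARG00000059128) and the gene with the RefSeq synonym uqcr11, si:ch1073-325m22.2 (ENSDARG00000095921). The haem protein CYC1, also catalytic, the large core proteins UQCRC1 and UQCRC2, and UQCR10 were in no module. Both identifiers of UQCRC2 were among these. Cytochrome c, which carries electrons from complex III to complex IV, was in module 7 as cycsb (ENSDARG00000044562), while its other copy cycsa was in no module.

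Complex IV, cytochrome c oxidase, gave 10 members for 9 of 15 named subunits (60.0%). They were COX4I1 (ENSDARG00000032970) and cox4i1l (ENSDARG00000012388), which share the COX4I1 name, COX6A1 (ENSDARG00000054588), cox6b1 (ENSDARG00000045230), cox6b2 (ENSDARG00000037860), cox6c (ENSDARG00000038577), cox7a1 (ENSDARG00000069464), COX7A2 (ENSDARG00000053217), COX7A2L (ENSDARG00000054907) and ndufa4b (ENSDARG00000056108). In mammals cox7a1 and its relatives are tissue forms of one subunit, COX7A2L joins complexes III and IV into supercomplexes, and NDUFA4 is a complex IV subunit despite its name. The catalytic subunits of complex IV are mitochondrially encoded, so all of these surround the catalytic core. COX4I2, COX5A, COX5B, COX7B, COX7C and COX8A were in no module. COX6A2 was not a symbol of the name table. Forms of one subunit, such as COX4I1 and COX4I2, were counted here as separate subunits.

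Complex V had the highest share of the 5 complexes, with 15 of 18 named subunits (83.3%) in module 7, of which 13 were reached by the rule. Of the 5 subunits of F1, the catalytic head, 4 were members: the catalytic beta subunit ATP5F1B (ENSDARG00000070083), the rotor subunits ATP5F1C (ENSDARG00000045514) and ATP5F1D (ENSDARG00000019404), and atp5f1e (ENSDARG00000095897). The alpha subunit ATP5F1A, which alternates with beta in the head, was in no module.

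From the membrane part and stalk of complex V, 10 of 12 named subunits were in module 7. The proton-carrying c ring was there as atp5mc1 (ENSDARG00000056008), ATP5MC3 (ENSDARG00000017775) and atp5mc3b (ENSDARG00000009447). The peripheral stalk, which holds the head still, was there as ATP5PB (ENSDARG00000011553), ATP5PF (ENSDARG00000014313) and ATP5PO (ENSDARG00000001788), while the stalk subunit ATP5PD was in no module. The supernumerary subunits atp5mea (ENSDARG00000078113), atp5meb (ENSDARG00000068940), atp5mf (ENSDARG00000037867), ATP5MG (ENSDARG00000011841) and atp5md (ENSDARG00000096003) completed the members. DMAC2L was in no module, and ATP5MC2 was not a symbol of the name table.

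Another 2 catalogue names of complex V, counted in its share, were in module 7 outside the rule, since no term of the rule lists them. These were atp5mj (ENSDARG00000092873) and the inhibitor of ATP hydrolysis, as both atp5if1a (ENSDARG00000067975) and atp5if1b (ENSDARG00000044092). Carriers that exchange phosphate and adenine nucleotides for the ATP synthase were in the same position, with 1 of the 2 identifiers named SLC25A3 (ENSDARG00000025566) and with SLC25A5 (ENSDARG00000092553). SLC25A4, SLC25A6 and the flavoprotein route of electrons into ubiquinone (ETFA, ETFB and ETFDH) were in no module. Of the uncoupling proteins, ucp3 was in module 5, and UCP1 and UCP2 were in none.

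The remaining members were 5 assembly factors of the catalogue and 4 genes outside it. NDUFAF2 (ENSDARG00000069286) helps to build complex I. SCO1 (ENSDARG00000067593), COX11 (ENSDARG00000061004), cox17 (ENSDARG00000069920) and coa6 (ENSDARG00000092677) bring copper to complex IV. TMEM126A (ENSDARG00000014506) stood under complex I assembly and OXA1L (ENSDARG00000069313), which inserts proteins into the inner membrane, under complex IV assembly. The small peptide STMP1 (ENSDARG00000093058) stood under the mitochondrial respiratory chain. The inorganic pyrophosphatase ppa1b (ENSDARG00000030441) came in through the KEGG pathway, and it is no component of the respiratory complexes.

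Of the assembly factors in the catalogue, 9 of 56 named ones (16.1%) were in module 7, beside 47 of 81 subunits. Both shares lie above that of all named genes, of which 337 of 29201 were in module 7. The difference between the assembly and subunit shares was not tested. The catalogue leaves out TMEM126A and OXA1L, members that the chart lists under assembly terms, so its assembly shares depend on the names entered. By complex they were 1 of 15 for complex I, 0 of 4 for complex II, 2 of 9 for complex III, 5 of 25 for complex IV and 1 of 3 for complex V. The 4 that the rule did not reach were uqcc5 and lyrm7 for complex III, cox14 for complex IV and atpaf1 for complex V. The single factor in another module was higd1a, in module 6, and 46 were in none, as were most genes of the name table.

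Zebrafish keep many genes as duplicate copies, and 16 subunits and carriers stood on more than 1 identifier. In 5 all copies were in module 7 (NDUFAB1, COX4I1, ATP5MC3, ATP5ME and ATP5IF1). In 6 all copies were in no module (NDUFA9, SDHD, UQCRC2, COX5A, COX8A as cox8a and cox8b, and COX5B, the last on 3 identifiers). The other 5 were split. The copy in lower case, cox6a1 (ENSDARG00000022438), was in module 2 while COX6A1 was in module 7, and this was the single subunit with copies in different modules. COX7A2, NDUFA4, SLC25A3 and CYCS each had 1 copy in module 7 and 1 in none. Symbols in capitals, carried by 38 of the 59 members, often lack the final letter of zebrafish names, so which copy such an identifier stands for is not known, and an identifier with the same symbol need not be a true duplicate.

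Of the 13 mitochondrially encoded subunits of the same complexes, 0 were in module 7, which holds 8.52% of all module genes. Module 1 held 9 of the 13 (MT-ND1, MT-ND2, MT-ND3, MT-ND4, MT-CYB, MT-CO1, MT-CO2, MT-CO3 and MT-ATP6). It is the largest module, with 1543 of the 4449 module genes. MT-ND4L, MT-ND5, MT-ND6 and MT-ATP8 were in no module. The vacuolar proton pump, which the KEGG pathway also counts, had 0 of 16 named subunits in module 7, 9 in other modules and 7 in none. These small counts were not tested against the module sizes.

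The chart of module 7 listed 155 terms, of which 83 (53.5%) had a Benjamini-adjusted p under 0.05 in the authors' deposited table. The rule used 23 of these terms, and 22 were under that threshold in the authors' deposited table. As the terms chose the members, their values are a description. The KEGG pathway was the widest, with 51 of its 148 background genes in module 7, an 11.5-fold enrichment and an adjusted p of 3.74e-39 in the authors' deposited table. It listed all but 8 of the members, which were TMEM126A, SCO1, NDUFAF2, OXA1L, NDUFB1, coa6, STMP1 and atp5md.

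The share of a term's background genes that lay in module 7 varied between complexes. The authors' deposited table placed 13 of 21 background genes of ATP synthesis coupled proton transport in module 7 (61.9%, 44.1-fold, adjusted p 1.56e-15). It gave 8 of 13 for the membrane part of the mitochondrial ATP synthase (61.5%, 41.2-fold, adjusted p 4.57e-09 in the authors' deposited table). For the catalytic F1 core it gave 5 of 7 (71.4%), and ATP5PO, a stalk subunit in the catalogue, was among the 5. The authors' deposited table also gave 8 of 15 (53.3%) for a second term of the membrane part and 3 of 3 for the mitochondrial F1 core. For complex III it gave 4 of 7 (57.1%, 38.3-fold), for complex I 17 of 43 (39.5%, 26.5-fold) and for complex IV 4 of 13 (30.8%, 20.6-fold), all in the authors' deposited table. The complex I term held 17 of the 18 complex I members and no other gene, and NDUFB4 was the member it left out. Of the complex IV members, the complex IV term held only cox4i1l, COX4I1, COX6A1 and ndufa4b. A further term, respiratory chain complex IV, had 3 of 9 genes in module 7 in the authors' deposited table (cox6b2, cox6b1 and coa6). The chart of module 7 does not name the background genes outside the module. That of module 1 lists MT-CO1, MT-CO2 and MT-CO3 under respiratory chain complex IV, so the background of that term includes mitochondrially encoded genes. The catalogue shares, which put complex IV above complexes I and III, hold nuclear-encoded subunits only. They also count forms of one subunit, such as cox7a1 and COX7A2, as separate subunits, so the order of complexes III and IV depends on this counting. The term shares and the catalogue shares thus need not cover the same genes.

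The rule's one term over the threshold was regulation of oxidative phosphorylation, with an adjusted p of 0.0589 and 3 of 7 genes in the authors' deposited table. Its genes were COX7A2, COX7A2L and cox7a1, which also made up supercomplex assembly, with 3 of 6 genes and an adjusted p of 0.0477 in the authors' deposited table. Just inside the threshold stood also electron transport from NADH to ubiquinone, with 4 of 21 genes and an adjusted p of 0.0486 in the authors' deposited table. Its module 7 genes were NDUFB8, ndufa7, NDUFS8 and NDUFA8.

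**Figure D2:**
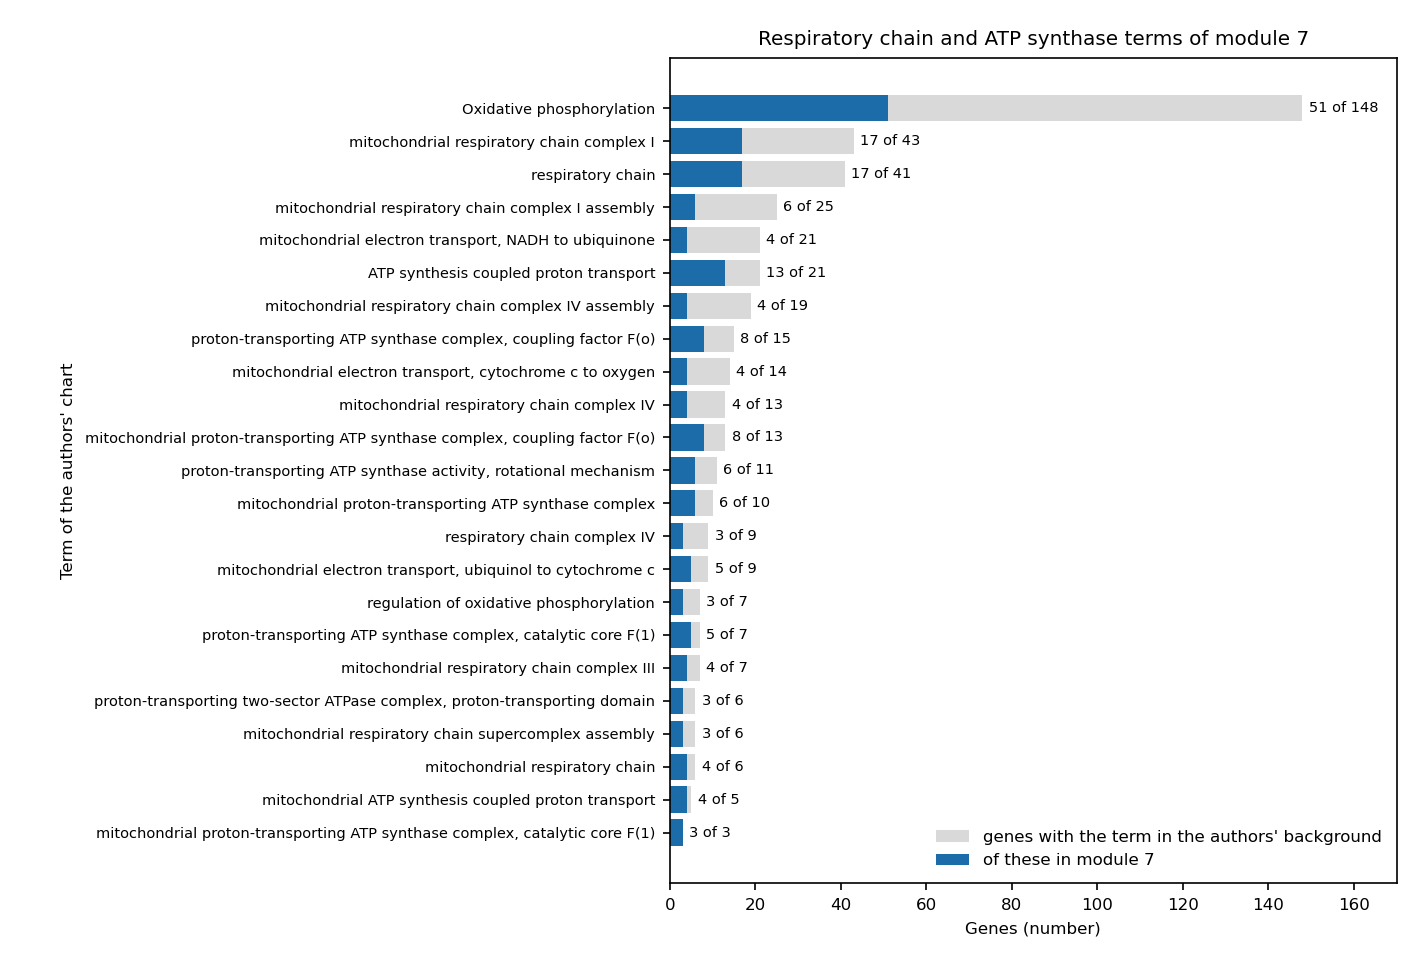
Horizontal bars give, for each of the 23 terms, the number of genes in the authors' background (grey) and of these in module 7 (blue), on a linear axis of gene number. The terms of the ATP synthase are filled further than those of complexes I and IV, with 13 of 21 genes for ATP synthesis coupled proton transport against 17 of 43 for complex I.

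Members stood under a median of 3 terms of the rule. ATP5F1B and atp5f1e stood under 6, the most, and 14 members stood under 1 term only. Terms of one complex overlap in their genes, so they are not separate evidence. cycsb joined the terms of complexes III and IV, since the chart lists cytochrome c under electron transport both to cytochrome c and from it to oxygen.

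**Figure D3:**
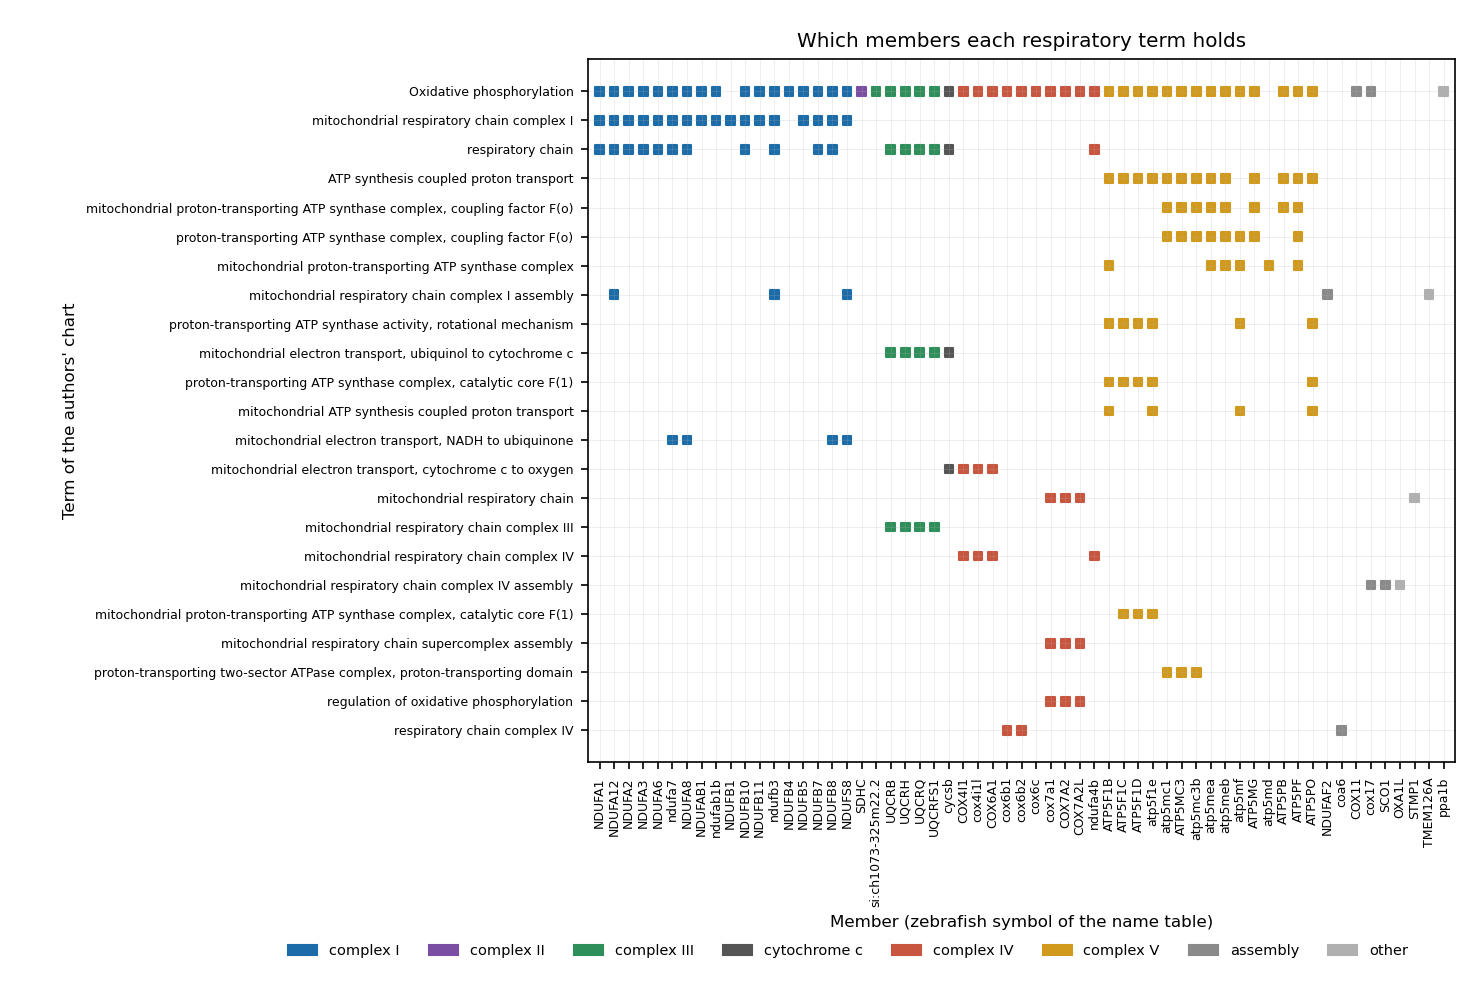
Grid of the 59 members (horizontal axis, zebrafish symbols ordered and coloured by complex) against the 23 terms (vertical axis), with a square where the chart lists the member. The KEGG row holds 51 squares across all complexes, and most other rows stay within 1 complex.

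The chart also listed the members under terms that the rule did not use. With an adjusted p under 0.05 in the authors' deposited table, 61 other terms were listed, and 17 of them held at least 1 member. All genes were members in 7 of the 17, which are enzyme activities and compartments of the same machinery. Examples are cytochrome-c oxidase activity with 8 genes, electron carrier activity with 7 and the mitochondrial intermembrane space with 5 (NDUFB7, cycsb, NDUFA8, cox17 and STMP1). The other 44 terms held no member. Ribosome terms were among them by construction, since the rule leaves out any gene listed there. In all, 58 of the 59 members had at least 1 other term under the threshold, and atp5md had none. Broad terms count here too. The KEGG term metabolic pathways alone held 50 members, all of them also in the KEGG pathway that the rule used. The count of 58 is therefore a description and not evidence separate from the rule. Of all 379 module 7 genes, 257 (67.8%) had a term outside the rule under the threshold, or 199 of the 320 that are no members (62.2%).

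The KEGG pathway of cardiac muscle contraction held 22 module 7 genes, a 5.05-fold enrichment with an adjusted p of 3.61e-08 in the authors' deposited table. Of these 22 genes 14 (63.6%) were members, all of them subunits of complexes III and IV. The other 8 were contractile and calcium genes: CASQ2, tnnc1a, TNNT2, tpm4a, atp2a2a, cmlc1, actc1a and actc1c. The GO process of the same name, cardiac muscle contraction, held 5 module 7 genes and no member, with an adjusted p of 0.0126 in the authors' deposited table.

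Of the 79 module 7 genes under the GO component mitochondrion, 40 (50.6%) were members, and of the 34 under mitochondrial inner membrane 27 (79.4%) were. The component left out 19 members, among them ATP5F1B and SDHC, whose proteins are mitochondrial, so this annotation is incomplete for the members. Citrate cycle genes numbered 9 in the KEGG pathway, with 1 member, SDHC.

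**Figure D4:**
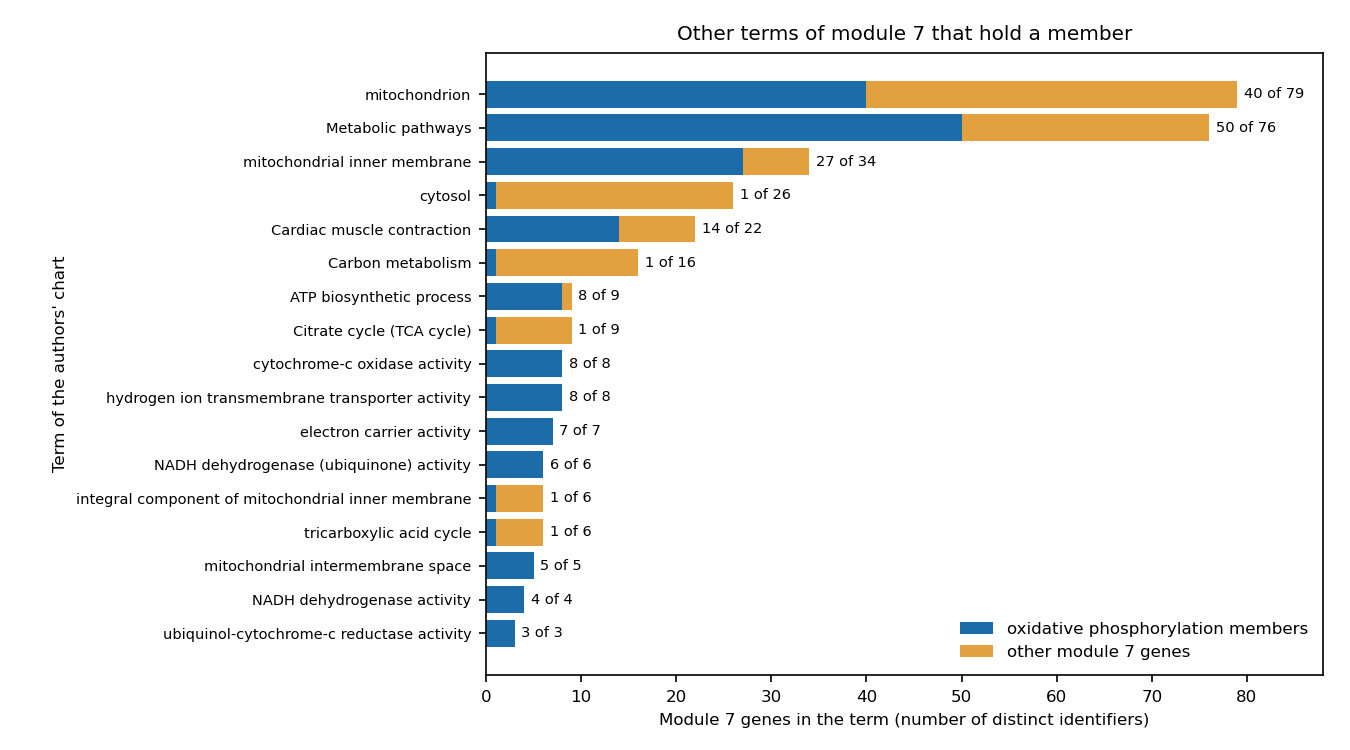
Stacked horizontal bars of the 17 other terms that hold a member, giving the number of module 7 genes that are members (blue) and that are not (orange) on a linear axis. Activities of the complexes are wholly blue, cardiac muscle contraction holds 14 of 22, and the citrate cycle terms hold 1 member each.

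Terms matching the rule were found in 1 other chart, that of module 1, which listed 5, none with an adjusted p under 0.05. Its KEGG oxidative phosphorylation row held 14 genes, a 1.63-fold enrichment with an unadjusted p of 0.0862 and an adjusted p of 0.747 in the authors' deposited table. Of these, 9 were mitochondrially encoded and 5 belonged to the vacuolar proton pump, so none was a nuclear-encoded subunit of complexes I to V. Modules 7 and 1 together held 65 of the 148 background genes of the pathway in the authors' deposited table.

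Gene order in the RefSeq table of assembly GRCz12tu placed 54 members by symbol. The other 5 were not placed. Among the placed members a single pair, atp5mc3b and cycsb, had at most 4 protein-coding genes between them, namely 3. How many such pairs an equal number of other genes would give was not counted. A symbol in capitals without a final a or b can stand for either copy, so some members may have been placed at the wrong copy.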

How the data were processed

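The study has 3 wildtype plates and 4 plates of hmga1a mutant cells. Seurat is named in the submitters' processing notes. The sources used here do not say how reads were aligned, cells filtered or modules made. The deposited data used were 8 lists of Ensembl identifiers and 8 annotation charts. Per the file headers, the charts give the authors' p-value for a term, its Benjamini adjustment and a fold enrichment. Listed terms had a p of at most 0.1. No value per plate was used, so no comparison of genotypes and no test was made, and counts describe lists.

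Members were taken by keyword from the chart of module 7. Symbols came from a table of 29201 genes, and 42 of the 379 module 7 genes had none and could not be matched. Over all 8 modules, 798 of the 4449 genes were not in that table. Subunits were matched to a catalogue made by hand from general knowledge, ignoring case and a final a, b or l. The members, the catalogue and the other lists were chosen with earlier results of these data known. Every member and every catalogue subunit of complexes I to V is named. The catalogue is not complete, and 1 item is not reported here. Matching was tested on a few hand-picked symbols with known answers, and the rule on invented identifiers. Sequences of promoters and proteins were not used here. Python 3.11.15 with pandas 2.3.3 was used.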

Additional observations from a re-analysis of the deposited data

How the results depend on the processing

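The number of members was 59 and ranged from 51, with the KEGG pathway alone, to 60, with RPL37 kept. It stayed at 59 with adjusted p under 0.05 required of each term, and without the terms that matched by proton-transporting alone or by electron transport alone. The number of subunits of complexes I to V in module 7 was 45 by symbol. It was 42 with exact symbols, 43 among the members, 47 with older symbols and synonyms, 50 as identifiers, and 45 within the first ascending run of the module list, which held 375 of its 379 genes and all 59 members. The number of members with a further term was 58 with the terms under the threshold and with all listed terms. Each value lay within 1.5 times the main one. The planned counts of promoter motifs were not run, as no promoter sequence was used here. No paired analysis was possible because the lists carry no value per plate, and for the same reason leaving out a plate gives no value. Depth is unknown. A subunit in no module may have been unmeasured, filtered or not assigned, and these cannot be told apart here.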

Other observations

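The GO component mitochondrion in the authors' deposited table lists 39 module 7 genes that are not members. By the catalogue, which is not complete, 6 of them belong to complex V or to the assembly of the complexes (atp5mj, atp5if1a, atp5if1b, atpaf1, lyrm7 and cox14). The others named here have other tasks. Outer membrane channels were there as VDAC2 and VDAC3, protein import as TOMM5 and timm23a, and the inner membrane folds as chchd6a. Enzymes of the citrate cycle and its entry were IDH2, FH, MDH2, PDHX and kgd4, and pyruvate itself is brought in by MPC1. CKMT2, a mitochondrial creatine kinase, passes phosphate from ATP to creatine. SOD2 and prdx5 remove superoxide and peroxide, COQ9 is needed to make ubiquinone, ISCA2 to make iron-sulphur clusters, and TAFAZZIN remodels cardiolipin, a lipid that the respiratory complexes bind. Proteins of the mitochondrial ribosome were MRPL41, MRPL23, MRPL4, mrpl52 and MRPS35.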
